A study of Homo sapiens with 16 samples.

Results

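The ERBB receptors are 4 related receptor tyrosine kinases, EGFR, ERBB2, ERBB3 and ERBB4, and ERRFI1 (MIG6) encodes a cytoplasmic protein that binds the active kinases and inhibits them. These 5 genes were taken by name from the 26364 genes in the deposited count tables, and all 5 were present in the table of each cell line. Transcript levels were measured by bulk RNA-seq in T-47D, a line from a human breast carcinoma, and in Ishikawa, a line from a human endometrial adenocarcinoma. Both lines were kept in hormone-deprived medium and then received 10 nM 17β-estradiol (E2), the main natural estrogen, for 2, 4 or 8 h, or vehicle only, which is the 0 h group. Each of the 4 time points had 2 replicates per line, which gave 16 libraries of poly(A) RNA. Each line is a single tumour-derived line, and nothing in the labels says that replicates came from separate cultures, so p-values measure only the spread between these libraries.

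ERBB receptors pair with each other when ligands of the EGF family bind, and the paired kinases signal through the RAS-ERK and PI3K-AKT pathways. ERBB2 has no known ligand and is the preferred partner of the others, ERBB3 has little kinase activity of its own but many docking sites for PI3K, and ERRFI1 is a feedback inhibitor whose transcription is induced by the signal that it limits. ERBB2 is amplified in a subset of breast carcinomas, and estrogen is known to lower its expression in breast cancer cells.

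Library totals lay between 41223813 and 64148903 counts for T-47D and between 41177912 and 58918642 counts for Ishikawa. Of the counts from 1 to 10, 71.2% to 74.6% were even, so counts may not be independent fragments, and counting intervals cover counting error only. All 5 epithelial markers were above 1 CPM (counts per 1000000, on scaled library sizes) in every library of both lines. The 5 endometrial markers were above 1 CPM in all Ishikawa libraries and in no T-47D library, while 5 of 6 luminal breast markers passed that level in T-47D cells and 3 of 6 in Ishikawa cells. TFF1, a luminal marker, had a mean of 1.47 CPM in T-47D cells. Of the 6 stromal markers, COL1A1 was present at a mean of 83.4 CPM in T-47D cells and 205 CPM in Ishikawa cells. LUM had a mean of 6.2 CPM in T-47D cells, and COL3A1 had a mean of 5.17 CPM in Ishikawa cells. All other means of the list, among them those of DCN and PDGFRB in both lines, were under 1 CPM. The summed stromal level ranged from 77.7 to 103 CPM in T-47D cells and from 154 to 277 CPM in Ishikawa cells. At 8 h, 3 of 4 tested stromal genes were called lower in T-47D cells and 2 of 3 in Ishikawa cells. The share of all genes called lower at that time was 14.3% for T-47D and 10.1% for Ishikawa. All 6 luminal markers were tested in T-47D cells, where 4 were called lower and 1 higher at 2 h. The 4 h comparison called 3 of them lower and 2 higher, while the 8 h comparison called 1 lower and 2 higher. Of 4 luminal markers tested in Ishikawa cells, 2 were called lower at 2 h. Among all T-47D genes, 9.3%, 21.5% and 29.7% were called at 2, 4 and 8 h, and 4.4%, 10.4% and 14.3% were called lower. Among all Ishikawa genes, 4.35%, 14.3% and 22.1% were called at these times, and 1.74%, 6.6% and 10.1% were called lower. Of 3 basal epithelium markers, KRT5 and TP63 were tested in Ishikawa cells and were lower at 4 h and 8 h, with log2 fold changes at 8 h of -0.52 (adjusted p = 0.0300) and -0.40 (adjusted p = 0.0447), and the summed level of the list ranged from 28.2 to 51.8 CPM there and from 0.205 to 1.39 CPM in T-47D cells. Of the 5 epithelial markers, the keratins KRT8, KRT18 and KRT19 were higher in T-47D cells at 2, 4 and 8 h. Their increase at 8 h was 0.25 to 0.57 on the log2 scale. In the same cells, 1 marker of this list was called lower at 4 h and 1 at 8 h. KRT18 was lower in Ishikawa cells at 4 h and 8 h (-0.35 at each), while 1 marker of the list was called higher there at 2 h and 1 at 8 h. The part of these markers in the changes of the receptors was not tested. Summed immune and endothelial markers reached at most 8.59 CPM. The Ishikawa libraries labelled 4 h and 8 h did not group by time. The root mean square log2 difference over all tested genes was 0.391 between the 4 h replicates and 0.353 between the 8 h replicates. It was 0.329 between the second 4 h library and the first 8 h library. The second 4 h library was also nearer to the first and second 2 h libraries (0.365 and 0.353) than to its replicate. The first 8 h library was nearer to the second 2 h library (0.345) than to its replicate. In T-47D cells, the first 2 h library was also slightly nearer to the first 4 h library (0.327) than to its replicate (0.337), and the second 8 h library to the first 4 h library (0.330) than to its replicate (0.332), while the 4 h replicates were the nearest pair (0.297). Values for the 4 Ishikawa libraries of 4 h and 8 h as 1 group (4-8 h) are therefore given beside the values of each time point. Joining them does not remove their nearness to the 2 h libraries.

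ERBB2, ERBB3 and ERBB4 differed more between the lines before E2 treatment than they changed after it. In bulk RNA, fewer expressing cells and less RNA per cell cannot be told apart. In T-47D cells, ERBB3 had 892.1 and 902.4 CPM at 0 h, against 136.6 and 137.5 CPM in Ishikawa cells. ERBB2 had 718.4 and 727.3 CPM in T-47D cells and 160.9 and 176.8 CPM in Ishikawa cells. The values of the lines lay far apart for both genes, with log2 differences of 2.71 (SE 0.05, adjusted p = 2.99e-21) for ERBB3 and 2.10 (SE 0.06, adjusted p = 4.10e-18) for ERBB2. These and all later adjusted p-values are Benjamini-Hochberg values from edgeR's quasi-likelihood test over all genes tested, and a gene was called at an adjusted p under 0.05. ERBB4, a receptor for neuregulins, was found almost only in T-47D cells, with 1568 and 1211 counts at 0 h against 6 and 3 counts in Ishikawa cells. The ratio of the ERBB4 levels was 350 (95% counting interval 184 to 766), and edgeR gave an adjusted p of 1.80e-17. EGFR, the receptor for EGF and TGFA, had 37.16 and 39.52 CPM in T-47D cells and 49.6 and 42.71 CPM in Ishikawa cells. EGFR was thus slightly lower in T-47D cells, with a log2 difference of -0.27 (SE 0.07, adjusted p = 0.00201), and this call was lost without the first Ishikawa 0 h library (-0.14, adjusted p = 0.0948). ERRFI1 had 31.04 and 34.4 CPM in T-47D cells and 36.82 and 32.95 CPM in Ishikawa cells, which overlapped (log2 difference -0.09, SE 0.08, adjusted p = 0.270). In total, 4 of the 5 genes differed between the lines at 0 h, 3 higher and 1 lower in T-47D cells, where 81.9% of all genes tested did.

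**Figure D1:**
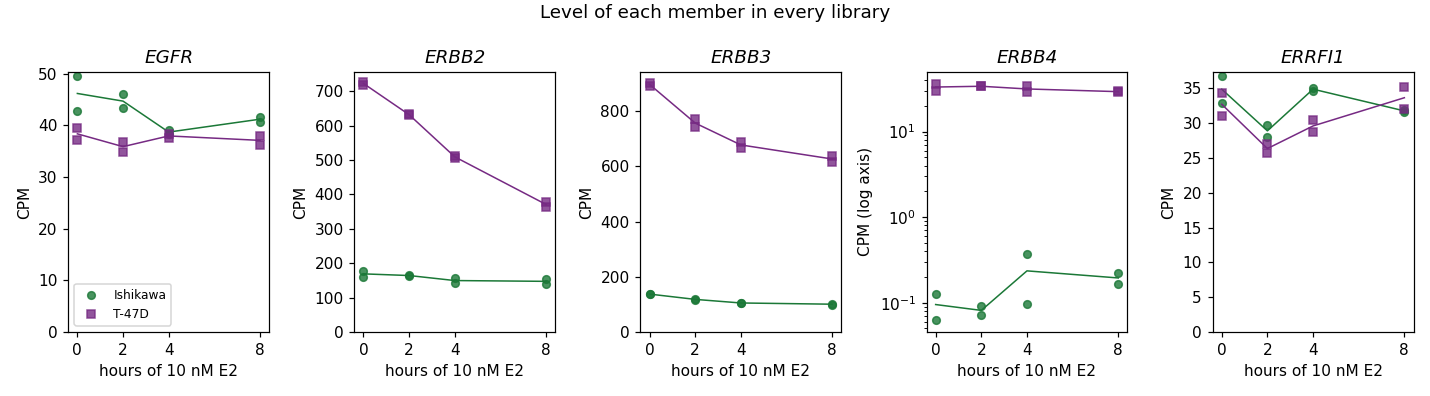
Level of each gene in CPM (vertical axis, a log axis for ERBB4) against hours of 10 nM E2 in Ishikawa cells (circles) and T-47D cells (squares), with 1 point per library and lines through the means of 2 replicates. ERBB2 and ERBB3 in T-47D cells start at means of 722.9 and 897.2 CPM and fall at each time point, and ERBB4 in Ishikawa cells stays below 0.4 CPM in every library.

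Levels of different genes were compared as CPM per kilobase of exon, with the exons of all transcripts of a gene joined. The exons were those of GENCODE, while the reads had been counted over UCSC Known Genes. The length used may therefore differ from that of the exons counted. In Ishikawa cells at 0 h, the order was ERBB2 at 16.4 ± 1.1 (SD, n = 2), ERBB3 at 11.7 ± 0.053, ERRFI1 at 8.35 ± 0.66, EGFR at 2.90 ± 0.31 and ERBB4 at 0.00732 ± 0.0035 CPM per kilobase, and each gene lay above the next in both replicates. In T-47D cells, the order was ERBB3 at 76.6 ± 0.63, ERBB2 at 70.0 ± 0.61, ERRFI1 at 7.83 ± 0.57, ERBB4 at 2.54 ± 0.34 and EGFR at 2.41 ± 0.10 CPM per kilobase. The replicates of ERBB4 and EGFR overlapped in T-47D cells. With the length of the longest transcript, ERBB2 in T-47D cells came to 146.6 and ERBB3 to 143.2 CPM per kilobase, so the order of these 2 genes rests on the length used. EGFR and ERBB4 also changed places with that length, at 3.87 and 2.74 CPM per kilobase. Per kilobase, ERBB3 was at the 97.0th and ERBB2 at the 96.5th percentile of the T-47D genes with a known length, and in Ishikawa cells they were at the 74.4th and 81.5th percentile.

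ERBB2 fell steadily in T-47D cells after E2 and reached 51.3% of its 0 h level by 8 h. From 718.4 and 727.3 CPM at 0 h it went to 631.4 and 632.6 CPM at 2 h, to 506.8 and 512.0 CPM at 4 h, and to 378.3 and 363.3 CPM at 8 h. Every library lay below both libraries of the preceding time point. The log2 fold changes against 0 h were -0.20 at 2 h (SE 0.04, adjusted p = 7.77e-04), -0.51 at 4 h (SE 0.04, adjusted p = 8.79e-09) and -0.96 at 8 h (SE 0.04, adjusted p = 1.39e-12). The decrease went on between the later time points, by 0.31 on the log2 scale from 2 to 4 h (adjusted p = 4.60e-05) and by 0.45 from 4 to 8 h (adjusted p = 2.06e-06). By p-value, the change from 4 to 8 h ranked 3rd among the 15594 genes tested. Without each T-47D library in turn, the log2 fold change at 8 h stayed between -0.99 and -0.93.

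In Ishikawa cells, ERBB2 moved far less. It had 160.9 and 176.8 CPM at 0 h, 162.8 and 165.2 CPM at 2 h, 143.3 and 155.5 CPM at 4 h, and 153.6 and 140.6 CPM at 8 h. All 4 later libraries lay below both 0 h libraries, while the 2 h libraries lay between them. The log2 fold changes were -0.03 at 2 h (adjusted p = 0.849), -0.17 at 4 h (adjusted p = 0.105) and -0.20 at 8 h (SE 0.07, adjusted p = 0.0414), and -0.19 for 4-8 h (SE 0.06, adjusted p = 0.0229). Without the second 0 h library, the 8 h value was -0.13 (adjusted p = 0.315) and the 4-8 h value -0.11 (adjusted p = 0.332). Without the second 8 h library, they were -0.15 (adjusted p = 0.238) and -0.17 (adjusted p = 0.0539). Leaving out either 2 h library also ended the 8 h call, with adjusted p-values of 0.0784 and 0.0778.

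The response of ERBB2 differed between the lines. Taken as the T-47D response minus the Ishikawa response, the log2 difference was -0.15 at 2 h (SE 0.08, adjusted p = 0.526), -0.33 at 4 h (SE 0.08, adjusted p = 0.0114) and -0.76 at 8 h (SE 0.08, adjusted p = 7.15e-07). With the Ishikawa libraries of 4 h and 8 h as 1 group, which no longer matches the times, the difference was -0.32 for T-47D cells at 4 h (adjusted p = 0.00586) and -0.78 at 8 h (adjusted p = 1.02e-07). ERBB2 was the only one of the 5 genes called in the difference at 4 h and at 8 h, where 6.03% and 10% of all genes were called, and likewise against the joined Ishikawa group, where 7.51% and 10.7% were. At 2 h, edgeR called 0 of the 5 genes, with 0 at an unadjusted p under 0.05 and 0 called by DESeq2, and 2.67% of all genes were called.

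**Figure D2:**
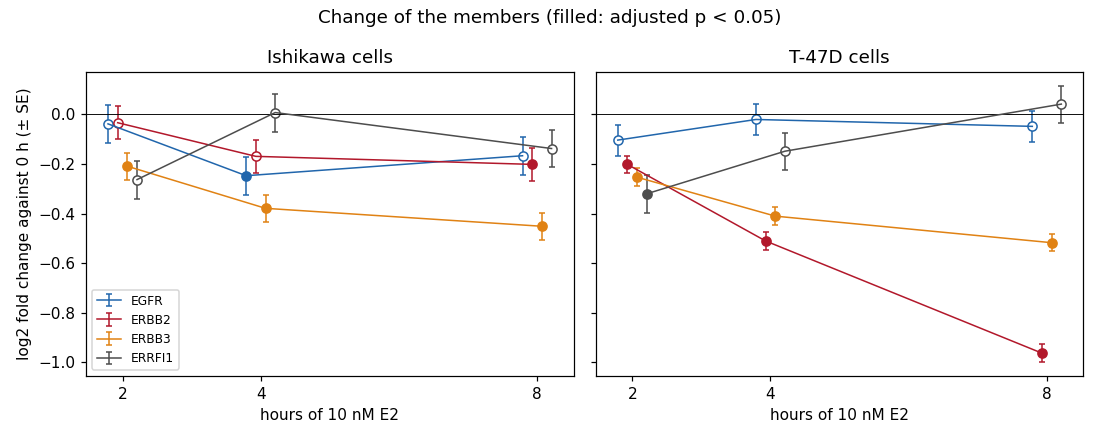
Log2 fold change against 0 h (vertical axis, bars are ± SE) at 2, 4 and 8 h of 10 nM E2 for EGFR, ERBB2, ERBB3 and ERRFI1, with Ishikawa cells on the left, T-47D cells on the right, and filled points where the adjusted p was under 0.05. ERBB3 reached -0.45 and -0.52 at 8 h, while ERBB2 reached -0.96 in T-47D cells and -0.20 in Ishikawa cells.

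ERBB3, the partner through which ERBB2 reaches PI3K, fell in both lines and from 2 h on. In T-47D cells it had 892.1 and 902.4 CPM at 0 h, 742.6 and 771.4 CPM at 2 h, 668.1 and 687.4 CPM at 4 h, and 636.3 and 617.2 CPM at 8 h. In Ishikawa cells it had 136.6 and 137.5 CPM at 0 h, 118.9 and 116.8 CPM at 2 h, 105.9 and 103.8 CPM at 4 h, and 102.6 and 98.2 CPM at 8 h. In both lines, each library lay below both libraries of the time point before it. The T-47D log2 fold changes were -0.25 at 2 h (SE 0.04, adjusted p = 7.04e-05), -0.41 at 4 h (SE 0.04, adjusted p = 1.40e-07) and -0.52 at 8 h (SE 0.04, adjusted p = 4.89e-09). The Ishikawa log2 fold changes were -0.21 at 2 h (SE 0.05, adjusted p = 0.0412), -0.38 at 4 h (SE 0.05, adjusted p = 2.51e-04), -0.45 at 8 h (SE 0.05, adjusted p = 4.50e-05) and -0.42 for 4-8 h (SE 0.05, adjusted p = 1.13e-05). The Ishikawa call at 2 h was fragile, and its adjusted p rose to between 0.0514 and 0.448 without the second 0 h library, either 2 h library, the second 4 h library or the first 8 h library.

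Much of the decrease of ERBB3 was present by 2 h. In T-47D cells the log2 change from 2 to 4 h was -0.16 (SE 0.04, adjusted p = 0.0163), and from 4 to 8 h it was -0.11 (SE 0.04, adjusted p = 0.114). The first of these calls was lost without any 1 of the 4 libraries compared, with adjusted p-values from 0.0632 to 0.305. In Ishikawa cells the change from 2 h to 4-8 h was -0.21 (SE 0.05, adjusted p = 0.0197), and it was not called without the first 2 h library (adjusted p = 0.293), the second 2 h library (adjusted p = 0.199) or the second 8 h library (adjusted p = 0.0672). For ERBB3, the T-47D response minus the Ishikawa response was -0.03 after 2 h, -0.02 after 4 h and -0.07 after 8 h, with an SE of 0.06 each and adjusted p-values of 1.0, 0.956 and 0.568. No difference between the lines was therefore detectable for ERBB3 at this precision.

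The balance of ERBB2 and ERBB3 was read as a ratio of counts within a library, which does not depend on scaling between libraries. The change of this ratio over time was not tested. The T-47D libraries had ratios of 0.805 and 0.806 before E2, 0.85 and 0.82 after 2 h, 0.759 and 0.745 after 4 h, and 0.594 and 0.589 after 8 h. It stood slightly higher at 2 h than at 0 h and was lowest at 8 h, with no overlap between time points. In Ishikawa cells it went the other way, from 1.18 and 1.29 before E2 to 1.37 and 1.41 after 2 h, 1.35 and 1.5 after 4 h, and 1.5 and 1.43 after 8 h. All 6 E2-treated Ishikawa libraries lay above both 0 h libraries.

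**Figure D3:**
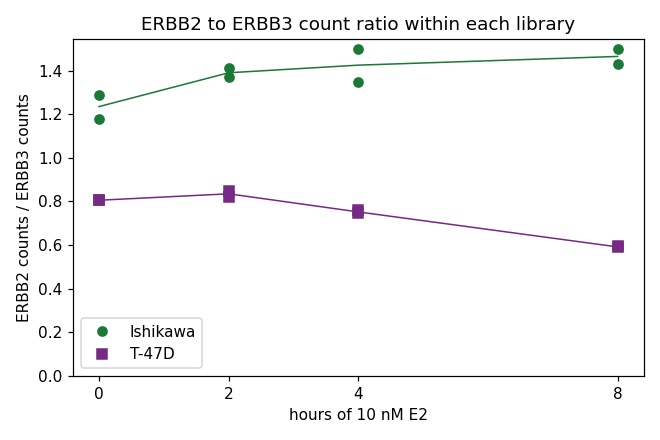
Counts of ERBB2 divided by counts of ERBB3 within each library (vertical axis, from 0) against hours of 10 nM E2, with Ishikawa cells as circles, T-47D cells as squares and lines through the means of 2 replicates. The T-47D ratio drops to 0.594 and 0.589 at 8 h, and the Ishikawa ratio rises above its 0 h values of 1.18 and 1.29.

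The summed level of the 4 receptors in T-47D cells was 150.9 and 152.3 CPM per kilobase at 0 h and 95.51 and 92.52 CPM per kilobase at 8 h. ERBB2 made up 46.1% and 46.3% of this sum before E2 and 38.4% and 38.0% of it after 8 h, while ERBB3 went from 50.5% and 50.6% to 56.9% and 57.0%. In Ishikawa cells the sum was 30.37 and 31.55 CPM per kilobase at 0 h and 26.27 and 24.58 CPM per kilobase at 8 h, and ERBB2 held between 51.3% and 57.2% of it in all 8 libraries. EGFR made up 8.49% to 10.4% of the Ishikawa sum and 1.54% to 2.57% of the T-47D sum. All these sums and shares rest on the joined exon length of each gene.

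**Figure D4:**
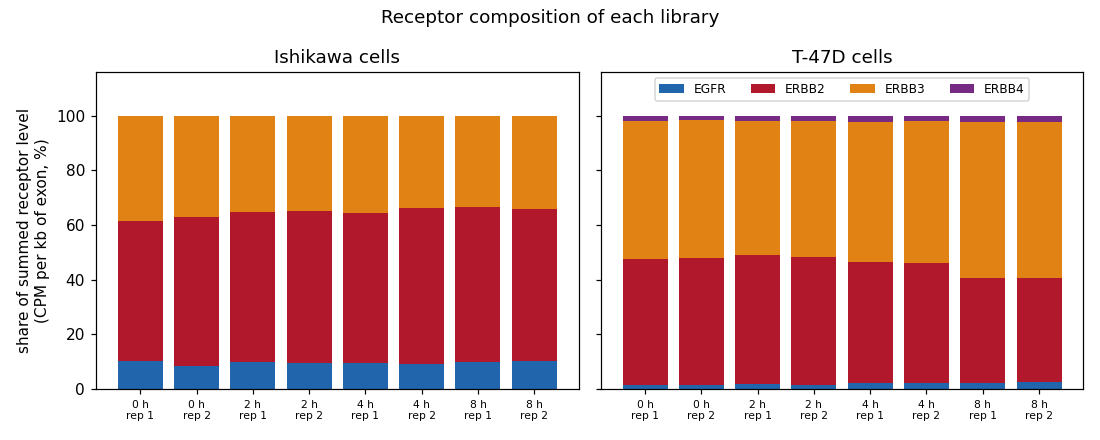
Share of the summed receptor level (CPM per kilobase of exon, in percent) held by EGFR, ERBB2, ERBB3 and ERBB4 in each library, with 1 stacked bar per library, Ishikawa cells on the left and T-47D cells on the right. The ERBB2 share of T-47D libraries falls from 46.1% and 46.3% before E2 to 38.4% and 38.0% after 8 h, and ERBB4 is too small to see in Ishikawa cells.

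EGFR showed no called change in T-47D cells, where it had 37.16 and 39.52 CPM at 0 h, 36.85 and 34.87 CPM at 2 h, 38.36 and 37.51 CPM at 4 h, and 36.18 and 37.97 CPM at 8 h. Its log2 fold changes there were -0.10, -0.02 and -0.05 at 2, 4 and 8 h, each with an SE of 0.06 and with adjusted p-values of 0.358, 0.859 and 0.618. In Ishikawa cells it had 49.6 and 42.71 CPM at 0 h, 46.08 and 43.27 CPM at 2 h, 39.08 and 38.28 CPM at 4 h, and 41.68 and 40.67 CPM at 8 h. The 4 later libraries lay below both 0 h libraries, which were themselves far apart. The log2 fold changes in Ishikawa cells were -0.04 at 2 h (adjusted p = 0.851), -0.25 at 4 h (SE 0.08, adjusted p = 0.0450), -0.17 at 8 h (adjusted p = 0.134) and -0.21 for 4-8 h (SE 0.07, adjusted p = 0.0318). Without the first 0 h library, the 4 h value was -0.14 (adjusted p = 0.213) and the 4-8 h value -0.10 (adjusted p = 0.360). The 4 h call was also lost without either 2 h library or either 4 h library, with adjusted p-values from 0.0760 to 0.164, and the 4-8 h call without the first 2 h library or either 4 h library, with values from 0.0510 to 0.0645. The response difference of EGFR at 4 h was 0.24 (SE 0.10, adjusted p = 0.209), and 0.34 (adjusted p = 0.0453) without the second Ishikawa 0 h library.

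EGFR lies at chr7:55086710-55279321 on the plus strand of GRCh37, and its main transcript has 28 exons. The 250 bases before its first start site (chr7:55086460-55086709, plus strand) hold no exon of any gene and are shown for comparison with the same stretch of ERRFI1 further on. The sequence is from RefSeq (GRCh38.p14) and was placed on GRCh37 by its single exact match. Capitals mark GC boxes, the letters GGGCGG or, on the other strand, CCGCCC, which 42.6% of 35116 windows of this length before RefSeq start sites hold.
EGFR: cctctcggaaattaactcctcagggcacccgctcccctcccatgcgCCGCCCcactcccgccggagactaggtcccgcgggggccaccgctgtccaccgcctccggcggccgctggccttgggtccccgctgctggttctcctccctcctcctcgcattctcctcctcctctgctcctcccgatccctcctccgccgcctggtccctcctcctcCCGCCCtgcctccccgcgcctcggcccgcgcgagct
It has 2 GC boxes, a GC content of 73.6% and no match to GGTCA or TGACC, the arms of the estrogen response element.

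ERRFI1, the feedback inhibitor, dipped at 2 h and returned in T-47D cells. It had 31.04 and 34.4 CPM at 0 h, 25.67 and 27.04 CPM at 2 h, 30.45 and 28.76 CPM at 4 h, and 32.07 and 35.25 CPM at 8 h. Both 2 h libraries lay below all 6 others, and the 8 h values overlapped those at 0 h. The log2 fold changes were -0.32 at 2 h (SE 0.08, adjusted p = 0.00982), -0.15 at 4 h (adjusted p = 0.177) and 0.04 at 8 h (adjusted p = 0.729). The 2 h call was lost without the second 0 h library (-0.23, adjusted p = 0.143) and when the first 2 h library was left out (-0.27, adjusted p = 0.139). The rise after 2 h was 0.17 to 4 h (adjusted p = 0.290) and 0.19 from 4 to 8 h (adjusted p = 0.192), so neither step passed the test.

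In Ishikawa cells, ERRFI1 had 36.82 and 32.95 CPM at 0 h, 29.79 and 28.01 CPM at 2 h, 35.12 and 34.66 CPM at 4 h, and 31.92 and 31.61 CPM at 8 h. The 2 h libraries were again the lowest of the 8. The 2 h log2 fold change was -0.26 (SE 0.08, adjusted p = 0.0724), which was not called, but DESeq2 gave an adjusted p of 0.0473, edgeR without a filter on low counts gave 0.0307, and edgeR without the second 0 h library gave 0.0459. The values at 4 h, 8 h and 4-8 h were 0.01, -0.14 and -0.06, with adjusted p-values of 0.962, 0.217 and 0.544. The response difference between the lines was -0.04 at 2 h (SE 0.11, adjusted p = 1.0).

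ERRFI1 lies at chr1:8064464-8086369 on the minus strand of GRCh37, with 4 exons in its main transcript. The 250 bases before its start site (chr1:8086370-8086619, minus strand, RefSeq, GRCh38.p14, placed on GRCh37 by a single exact match) are shown for comparison with EGFR. Capitals mark GGTCA, a GC box (GGGCGG) and a run that holds TATATA.
ERRFI1: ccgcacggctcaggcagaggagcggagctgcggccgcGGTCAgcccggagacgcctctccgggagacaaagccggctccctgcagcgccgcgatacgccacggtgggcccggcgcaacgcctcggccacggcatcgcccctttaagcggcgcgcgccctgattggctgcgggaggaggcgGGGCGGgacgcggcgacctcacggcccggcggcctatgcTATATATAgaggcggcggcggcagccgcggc
Its GC content is 75.2%. GGTCA or TGACC occurs in 32.6% and TATATA in 3.73% of the same 35116 windows, read on both strands. The whole estrogen response element, GGTCA and TGACC separated by 3 bases, was not found in either window and occurs in 0.0399% of all windows.

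ERBB4 was tested in both lines but held too few counts in Ishikawa cells to be read. Its counts there were 6 and 3 before E2, 4 and 4 after 2 h, 4 and 16 after 4 h, and 10 and 10 after 8 h, and it passed the filter on low counts through the later libraries alone. The higher counts at 4-8 h were not called (adjusted p = 0.237). In T-47D cells it had 36.21 and 29.97 CPM at 0 h, 33.92 and 33.66 CPM at 2 h, 33.98 and 28.88 CPM at 4 h, and 29.35 and 29.1 CPM at 8 h. The 0 h replicates were far apart, and the log2 fold changes of 0.02, -0.08 and -0.18 at 2, 4 and 8 h had adjusted p-values of 0.915, 0.576 and 0.135. Without the second 0 h library the 8 h value was -0.30 (adjusted p = 0.0178).

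All calls of the 5 genes over time were decreases. In T-47D cells 3 of the 5 genes were called at 2 h (ERBB2, ERBB3 and ERRFI1), where 9.3% of all genes were called and 4.4% were called lower. At 4 h and at 8 h the same 2, ERBB2 and ERBB3, were called, where 21.5% and 29.7% of all genes were called and 10.4% and 14.3% were called lower. From 2 to 4 h ERBB2 and ERBB3 were called, against 3.4% of all genes in either direction and 1.46% lower, and from 4 to 8 h ERBB2 was called, against 3.42% in either direction and 1.33% lower. In Ishikawa cells, ERBB3 was called at 2 h (4.35% of all genes called, 1.74% lower), ERBB3 and EGFR at 4 h (14.3% called, 6.6% lower), and ERBB3 and ERBB2 at 8 h (22.1% called, 10.1% lower). For 4-8 h, ERBB2, ERBB3 and EGFR were called against 0 h (25.7% of all genes called, 12.2% lower), and ERBB3 was called against 2 h (4.84% called, 2.6% lower). The comparisons with 0 h share the 0 h libraries of their line and are not independent of each other. In T-47D cells the median log2 fold change of the 5 genes was -0.20, -0.15 and -0.18 at 2, 4 and 8 h, while that of all genes tested was between -0.01 and 0.003. No median is given for Ishikawa cells, since ERBB4 held too few counts there.

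ERBB2 lies at chr17:37844167-37886679 on the plus strand of GRCh37, next to genes that are co-amplified with it in some tumours. Of 7 such neighbours, 6 were tested in T-47D cells, and GRB7 was the only one called lower at every time point. Of these 6, 1 was called lower at 2 h, 1 at 4 h and 2 at 8 h. Of all genes, 4.4%, 10.4% and 14.3% were called lower at these times, and the difference was not tested. GRB7, an adaptor that binds ERBB2, had 26.21 and 31.35 CPM at 0 h, 15.3 and 17.77 CPM at 2 h, 14.42 and 14.6 CPM at 4 h, and 14.87 and 12.95 CPM at 8 h. All 6 treated libraries lay below both 0 h libraries, and most of the decrease was present by 2 h, with log2 fold changes of -0.81, -0.99 and -1.05 (SE 0.10 each, adjusted p = 2.12e-05, 1.04e-06 and 3.78e-07). In Ishikawa cells GRB7 went from 8.685 and 9.632 CPM at 0 h to 5.364 and 5.575 CPM at 8 h, with log2 fold changes of -0.48, -0.66 and -0.75 and adjusted p-values of 0.0564, 0.00424 and 0.00129. MIEN1 changed by -0.18 at 8 h in T-47D cells (SE 0.06, adjusted p = 0.0294), and STARD3 and PGAP3 by -0.08 and -0.17 (adjusted p = 0.249 and 0.0748). MIEN1 and PGAP3 lie on the opposite strand and share 571 and 144 exonic bases with ERBB2. The strand setting of the counting is not given in the sources used here. The T-47D counts were 1885 to 2965 for MIEN1, 1343 to 2011 for PGAP3 and 17787 to 31739 for ERBB2. The part of the shared bases in these counts was not tested.

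**Figure D5:**
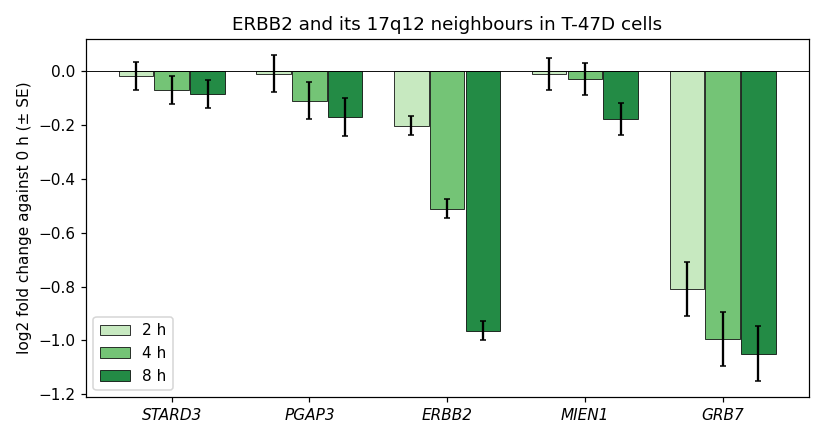
Log2 fold change against 0 h (vertical axis, error bars are ± SE) at 2, 4 and 8 h of 10 nM E2 in T-47D cells for ERBB2 and 4 of its neighbours on chromosome 17, in chromosomal order. GRB7 reaches -0.81 at 2 h and -1.05 at 8 h, ERBB2 deepens from -0.20 to -0.96, and STARD3, PGAP3 and MIEN1 stay between -0.18 and 0.

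ERBB3 lies at chr12:56470583-56497289 on the plus strand and ERBB4 at chr2:212240442-213403565 on the minus strand of GRCh37. The antisense gene EGFR-AS1, which shares 186 exonic bases with EGFR, had at most 4 counts in any library.

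Several ligands of the receptors also changed after E2. Of the 11 EGF-family ligands, 7 passed the filter in Ishikawa cells, where 2 were called higher and 1 lower at 8 h, beside 22.1% of all genes called in either direction. In T-47D cells 8 passed it, and 3 were called higher and 0 lower at 8 h, beside 29.7% of all genes. TGFA, a ligand of EGFR, rose in Ishikawa cells from a mean of 155 CPM at 0 h to 488, 543 and 570 CPM at 2, 4 and 8 h (log2 fold change at 8 h 1.88, SE 0.06, adjusted p = 6.72e-12). In T-47D cells TGFA rose from 12.8 CPM to 31.1 CPM at 2 h and stood at 26.5 CPM at 8 h (log2 fold change at 2 h 1.27, SE 0.08, adjusted p = 1.23e-09). AREG, another EGFR ligand, rose in T-47D cells from 2.75 CPM to 8.05 CPM by 8 h (log2 fold change 1.54, SE 0.19, adjusted p = 7.29e-06). NRG1, a ligand of ERBB3 and ERBB4, fell in Ishikawa cells from 33.4 CPM to 19.4 CPM by 8 h (log2 fold change -0.79, SE 0.12, adjusted p = 3.79e-04). Of 4 proteases that shed ligands, 3 were tested in each line, and ADAM10 was called lower in Ishikawa cells at 4 h and 8 h. Its log2 fold changes were -0.32 (adjusted p = 0.00733) and -0.22 (adjusted p = 0.0402), where 6.6% and 10.1% of all genes were called lower.

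Among 16 adaptors recruited to the receptors, 3 were called higher and 5 lower at 8 h in Ishikawa cells, and 1 higher and 6 lower in T-47D cells. Of all genes in T-47D cells 14.3% were called lower, and 10.1% in Ishikawa cells. PIK3R3, a regulatory subunit of PI3K, fell in both lines, from 279 to 217 CPM in Ishikawa cells (log2 fold change at 8 h -0.37, adjusted p = 9.10e-04) and from 209 to 148 CPM in T-47D cells (-0.50, adjusted p = 9.75e-08). Of 18 core components of the RAS-ERK and PI3K-AKT pathways, 3 were called higher and 0 lower at 8 h in Ishikawa cells. In T-47D cells 2 were called higher and 1 lower at that time. The shares of all genes called were 22.1% and 29.7%. At 4 h, 0 were called in Ishikawa cells, and 4 higher and 3 lower in T-47D cells, beside 14.3% and 21.5% of all genes. The difference from these shares was not tested. NRAS in Ishikawa cells (0.30, adjusted p = 0.00431) and MAP2K1 in T-47D cells (0.33, adjusted p = 1.89e-04) rose at 8 h on the log2 scale.

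Of 19 other genes that limit or turn over the receptors, 5 were called higher and 3 lower at 8 h in Ishikawa cells, and 2 higher and 1 lower in T-47D cells, beside 22.1% and 29.7% of all genes called in either direction. LRIG3, a membrane protein related to the receptor inhibitor LRIG1, was, like ERRFI1, lowest at 2 h in T-47D cells, going from 72.1 CPM at 0 h to 47.3 CPM at 2 h and back to 72.0 CPM at 8 h (log2 fold change at 2 h -0.62, SE 0.05, adjusted p = 1.16e-07). CBLB, a ubiquitin ligase, fell in Ishikawa cells by 2 h (log2 fold change -0.50, adjusted p = 0.00215), and RNF41, a ubiquitin ligase of ERBB3, rose there by 8 h (0.24, adjusted p = 0.00669). PTPRJ, a receptor phosphatase, was lower in T-47D cells at 8 h (-0.23, adjusted p = 0.00148).

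Of 10 genes used as readouts of ERK activity, all were tested in both lines. At 2 h, 2 were called higher and 1 lower in T-47D cells, and 1 higher and 4 lower in Ishikawa cells, beside 9.3% and 4.35% of all genes called. At 8 h, 6 were called higher and 1 lower in T-47D cells, and 2 higher and 1 lower in Ishikawa cells, beside 29.7% and 22.1% of all genes. The difference of these counts between lines or times was not tested. In Ishikawa cells at 2 h, CCND1 (cyclin D1) rose from 559 to 749 CPM (log2 fold change 0.43, adjusted p = 6.25e-05), and SPRY2, an inhibitor of the pathway, fell from 31.8 to 12.4 CPM (log2 fold change -1.36, SE 0.12, adjusted p = 2.91e-06). PHLDA1 rose in T-47D cells from 15.6 to 30.9 CPM by 8 h (log2 fold change 0.99, SE 0.08, adjusted p = 4.38e-08), and EPHA4, a receptor of ephrins, was lowest at 2 h (-0.77, adjusted p = 9.11e-08) and was still lower at 8 h (-0.34, adjusted p = 3.69e-04). CCND1 is also a direct target of the estrogen receptor.

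The genes whose pattern was most like that of each called gene were found by Pearson's correlation of log2 CPM over the 8 libraries of a line, which share time points and are given as a description. For ERBB2 in T-47D cells these were TP53I11 (r = 0.996), SUOX (0.995) and VTCN1 (0.995) among 13028 genes, and for ERBB3 they were KIAA0513 (0.998), MKNK2 (0.996) and PCGF2 (0.995). ERBB2 and ERBB3 were correlated with each other at r = 0.932 in T-47D cells, where ERBB3 ranked 385th of 13027 genes for likeness to ERBB2, and at 0.812 in Ishikawa cells. For ERRFI1 in T-47D cells, the most like were LRRC45 (0.965), FJX1 (0.932) and C20orf27 (0.93). In Ishikawa cells, they were MXD4 (0.99), TEAD2 (0.989) and CLDN9 (0.988) for ERBB3, ACTN4 (0.994), BZRAP1 (0.991) and SRCIN1 (0.99) for ERBB2, and NT5C2 (0.978), HECA (0.96) and RNF19A (0.959) for EGFR.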

How the data were processed

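Bulk RNA-seq covered 2 cell lines, 4 time points and 2 replicates, grouped by their labels, in a directional poly(A) protocol. The authors aligned with HISAT2 to hg19, counted reads over UCSC Known Genes by featureCounts and deposited the raw counts, which were not normalized. Versions and the strand setting are not given in the sources used here. Library totals were 41177912 to 64148903 counts.

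The counts as deposited went into edgeR 4.0.16 under R 4.3.3 (filterByExpr, TMM scaling, quasi-likelihood F-test, Benjamini-Hochberg adjustment, threshold 0.05). The 8 libraries of a line were fitted together with the time point as a factor and no replicate block, for 15594 T-47D genes and 15787 Ishikawa genes. Comparisons between lines used all 16 libraries and 17090 genes. SE is the absolute log2 fold change over the root of its F statistic. CPM used TMM-scaled library sizes, with a prior count of 2 for log2 CPM. The biological coefficient of variation came to 5.02% for T-47D and 6.45% for Ishikawa. The script was tested on simulated data. Exon lengths and positions came from GENCODE on GRCh37.

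The 5 genes, the gene lists and the tests were chosen with earlier results of these data known. The other genes named are, per list and line, up to 2 called genes with the smallest adjusted p over the 3 comparisons with 0 h and a mean of at least 50 counts, and, per called gene, the 3 genes of highest correlation. A gene that this rule selects is not reported here. Named outside that rule, after their values were seen, are STARD3, PGAP3 and EGFR-AS1. Marker genes were planned to be given by their ranges. The levels of single markers and the fold changes of KRT5, TP63, KRT8, KRT18 and KRT19 go beyond that plan. Alternatives were DESeq2 1.42.0, median-of-ratios (RLE) scaling, no filter, a filter of 10 counts in every library, a block for the replicate number, thresholds of 0.01 and 0.1, only the time points compared, the longest transcript as length, and leaving out each library. Comparisons between successive times, and those that set T-47D time points against the Ishikawa 4-8 h group, were added after seeing the data.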

Additional observations from a re-analysis of the deposited data

Results flagged for a closer look

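The change of ERBB2 after E2 was set apart because it differed between the lines in a test of the difference itself, the interaction of line and time in edgeR. The T-47D log2 fold change minus the Ishikawa log2 fold change was -0.33 at 4 h (adjusted p = 0.0114) and -0.76 at 8 h (adjusted p = 7.15e-07), and ERBB2 was lower than both 0 h libraries in 2 of 2 libraries of each line at both times. Against the Ishikawa libraries of 4 h and 8 h as 1 group, the difference was -0.32 for T-47D cells at 4 h (adjusted p = 0.00586) and -0.78 at 8 h (adjusted p = 1.02e-07). The 4 values share libraries and are not independent. Groups of 2 libraries were too small to look for single outlying samples.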

How the results depend on the processing

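No called change of the 5 genes changed direction under any alternative that was run. The count of called genes in Ishikawa cells at 2 h, 1 in the report, was 2 with DESeq2, 2 with no filter, 2 at an adjusted p under 0.1, 0 at an adjusted p under 0.01, 0 with the replicate block and 0 to 1 without each library in turn. At 4 h it was 1 in place of 2 with only the time points compared and at 0.01, and 1 to 2 without each library. At 8 h it was 1 in place of 2 with the replicate block, with only the time points compared and at 0.01, and 1 to 2 without each library. At an adjusted p under 0.01 the count was 1 in place of 3 for Ishikawa 4-8 h against 0 h, 0 in place of 1 for 4-8 h against 2 h, 1 in place of 2 for T-47D 4 h against 2 h, and 0 in place of 1 for the response difference at 4 h. Without each library in turn, these were 2 to 3, 0 to 1, 1 to 2 and 1 to 2. RLE scaling and the filter of at least 10 counts changed no call, but that filter dropped ERBB4 from the Ishikawa fit. Single-gene calls that changed at the threshold of 0.05 are given beside their values in the report or here. They include ERBB2 at 4 h in Ishikawa cells, which was called with no filter (adjusted p = 0.0337) and when the first 0 h library was left out (adjusted p = 0.0366), and EGFR at 8 h, called without the second 0 h library (adjusted p = 0.0422). With only the time points compared, EGFR at 4 h (-0.25, adjusted p = 0.0746) and ERBB2 at 8 h (-0.20, adjusted p = 0.0787) were not called in Ishikawa cells.

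Over all tested genes, deviations of same-numbered replicates had correlations of -0.0547 to 0.0595 in T-47D cells and -0.115 to 0.0533 in Ishikawa cells. Genes with few counts were part of these values, so they cannot exclude a shared culture or batch behind same-numbered libraries. The replicate block ended the calls of ERBB3 at 2 h (adjusted p = 0.0686) and ERBB2 at 8 h (adjusted p = 0.0543) in Ishikawa cells. With the longest transcript as length, the 0 h levels in CPM per kilobase were 4.66 for EGFR, 34.3 for ERBB2, 21.9 for ERBB3 and 11.3 for ERRFI1 in Ishikawa cells. In T-47D cells they were 3.87, 146.6, 143.2 and 10.6. With RLE scaling, ERBB2 and ERBB3 in T-47D cells were 71.0 and 77.7. Depth limits only ERBB4 in Ishikawa cells, with 3 to 16 counts per library. With 2 replicates, the Ishikawa calls of ERBB2, EGFR and, at 2 h, ERBB3 rest on single libraries.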
